A study of Saccharomyces cerevisiae with 6 samples.

Results

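The 9 genes described here encode enzymes and a carrier of arginine metabolism in budding yeast, 7 of synthesis (ARG2, ARG8, ORT1, CPA1, ARG3, ARG1 and ARG4) and 2 of breakdown (CAR1 and CAR2). They were chosen by name, through the array annotation, and all 9 had 1 probe set among the 5449 S. cerevisiae genes tested. Messenger RNA was measured on Affymetrix arrays in 6 samples, 3 of the wild-type reference strain FY4 and 3 of a strain whose BAS1 gene was deleted. Both strains grew as batch cultures in minimal medium with glucose at 30°C and were harvested in exponential growth at equal density. The labels name the strain FY4 only for the wild type, and give neither the parent nor the number of clones of the deletion strain. Separate cultures are not stated for the replicates, and the p-values below therefore reflect the spread among these samples alone.

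Arginine is made from glutamate. In yeast mitochondria glutamate is acetylated, carried through a series of acetylated intermediates and released as ornithine, which leaves for the cytosol and is joined with carbamoyl phosphate and aspartate to give arginine. In breakdown, arginase splits arginine into ornithine and urea, and ornithine is turned into a precursor of proline and glutamate. The Arg80, Arg81 and Mcm1 proteins, with Arg82, are known to repress synthesis genes and to activate the breakdown genes when arginine is plentiful. Gcn4 activates synthesis genes when amino acids run short, and Ume6 is known for repressing CAR1 and CAR2. Bas1, the Myb-family factor missing from the deletion strain, is known as an activator of genes for purine and histidine synthesis. The question of the comparison was how arginine genes change when BAS1 is deleted.

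All levels below are log2 intensities. Levels of different genes come from different probes and are not set against each other. BAS1 itself (YKR099W) had a wild-type level of 11.09 ± 0.12 (SD, n = 3) and fell below background on all 3 deletion arrays, at least 31.9-fold lower, which fits the labels. Background here is the level that 5% of the probe sets annotated with a gene that the S. cerevisiae table lacks exceed. Across all tested genes the median log2 difference was 0.11, and centring each array on its median lowers every difference by 0.15. Values after that centring are therefore given too. Over all 10928 probe sets the array medians were 7.89, 7.88 and 7.81 in wild type and 8.47, 8.52 and 8.65 in the deletion strain. That offset is larger than the one among the tested genes, so no single shift per array removes both. On each array, the level that 5% of the probe sets used for background exceeded went the other way. It was 6.60, 6.22 and 6.51 in wild type and 6.12, 5.83 and 5.73 in the deletion strain. The 2 strains also differed in rRNA controls, where 16 of 16 probe sets for the large cytosolic rRNAs were lower on average in the deletion strain, with a median log2 difference of -3.09. Poly-A spike controls split the arrays otherwise, into a low set (wild-type replicates 1 and 2 and deletion replicate 1) and a high set (wild-type replicate 3 and deletion replicates 2 and 3). Of the mating-type markers, 6 of 6 a-cell genes were above background on every array, and 1 of them, BAR1, was called lower (-0.61), joined by STE2 after array centring (-0.22). All 4 alpha-cell genes passed the test as higher in the deletion strain, where STE3 differed by 2.12 and MF(ALPHA)1 by at least 3.47 log2, and 3 of the 4 did so after centring. After quantile normalization MF(ALPHA)2 was called lower instead (-0.56) and SAG1 was not called (0.22). Of 4 sporulation markers, 1 (SPR3) was higher and 1 (SPS4) lower. SPR3 was above background on 2 of the 3 wild-type arrays. After quantile normalization IME1 was called lower too (-0.33), and NDT80, not called on either scale, went from 0.48 to -0.37. The part of rRNA and of these markers in the results below was not tested.

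Transcripts of both breakdown genes rose strongly in the deletion strain, while the synthesis genes moved less and in both directions. CAR1 rose 6.60-fold and CAR2 4.67-fold. Among the synthesis genes ARG2, ORT1, CPA1, ARG1 and ARG4 rose by 1.23-fold to 1.58-fold, and ARG8 and ARG3 fell by 1.78-fold and 1.27-fold. All 9 passed the test, limma with Benjamini-Hochberg adjustment over 5449 genes at a threshold of 0.05. That test called 59.5% of all tested genes, 39.6% as higher and 19.8% as lower, so a call alone does not set a gene apart here. In a bulk culture, a change in every cell and a change in some of the cells cannot be told apart.

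**Figure D1:**
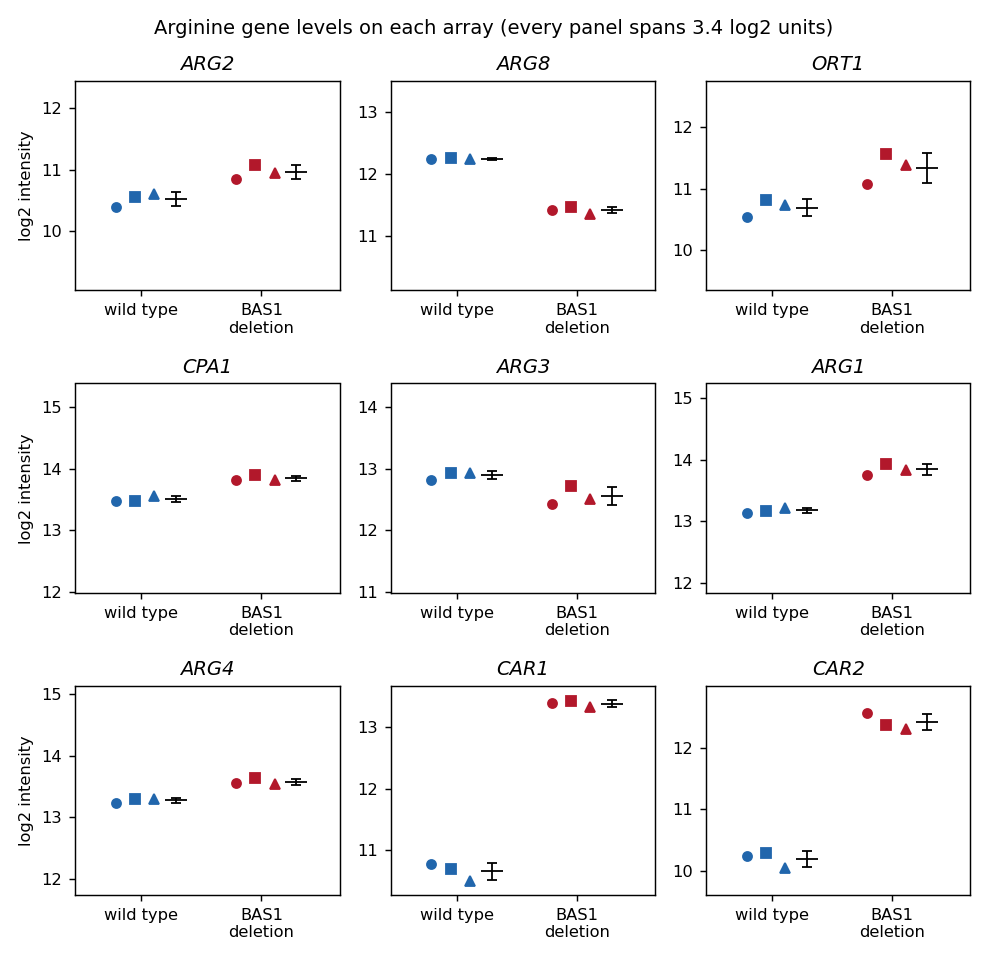
Log2 intensity of the 9 arginine genes on each array, wild type in blue and BAS1 deletion in red, with circles, squares and triangles for replicates 1, 2 and 3 and a black bar with whiskers for the mean ± SD. Every panel spans the same range of log2 units, so that the jump of CAR1 and CAR2 can be compared with the smaller shifts of the synthesis genes.

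CAR1 (YPL111W) encodes arginase, the first enzyme of arginine breakdown. Its level was 10.78, 10.69 and 10.51 on the wild-type arrays and 13.39, 13.42 and 13.32 on the deletion arrays. All 3 deletion values lay far above the highest wild-type value, and the 3 deletion arrays were close to each other. The log2 difference was 2.72 (SE 0.08, limma adjusted p = 3.3e-06), and it was 2.57 after array centring. For 3 against 3 arrays the smallest p of an exact permutation test, two-sided, is 0.1, and it was reached for CAR1 and for each of the other 8 genes, since in none of them did the strains overlap. Over all tested genes, 67.5% showed no overlap between the strains.

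CAR2 (YLR438W) encodes ornithine aminotransferase, which acts on the ornithine that arginase releases. Its level was 10.24, 10.28 and 10.04 in wild type and 12.56, 12.37 and 12.30 in the deletion strain. As for CAR1, the strains were well separated, and wild-type replicate 3 held the lowest value of both genes. CAR2 differed by 2.22 log2 (SE 0.09, adjusted p = 1.1e-05 by limma), and 2.07 after array centring. Only 1.03% of the 5449 genes rose more than CAR1 and 1.76% more than CAR2, and 8.33% of all genes were called with a rise of at least 2-fold. CAR1 rose more than CAR2 on each deletion array. Set against the wild-type means, its gain exceeded that of CAR2 by 0.37, 0.58 and 0.55 log2 on deletion replicates 1, 2 and 3. On the wild-type arrays the same quantity ran from -0.06 to 0.07.

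The acetylated steps inside mitochondria showed a rise and a fall. ARG2 (YJL071W) encodes acetylglutamate synthase, the enzyme that commits glutamate to this route. Its level was 10.40, 10.56 and 10.61 in wild type and 10.85, 11.07 and 10.95 in the deletion strain. The strains did not overlap, and the gap between them was about as wide as the range within either strain. ARG2 differed by 0.43 log2 (SE 0.08, limma adjusted p = 0.0050), and 0.28 after array centring.

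ARG8 (YOL140W) encodes acetylornithine aminotransferase, which acts later in the same series. Its level was 12.24, 12.26 and 12.24 on the wild-type arrays and 11.42, 11.46 and 11.36 on the deletion arrays. The arrays of each strain were almost level, and every deletion array was far below every wild-type array. The log2 difference was -0.83 (SE 0.05, limma adjusted p = 2.9e-05) and -0.99 after array centring. This was the largest change among the 7 synthesis genes, and 1.63% of all tested genes fell more. ARG7, which encodes the enzyme that hands the acetyl group from ornithine back to glutamate, rose by 0.49 (SE 0.06, limma adjusted p = 5.6e-04), so ARG8 moved against both measured genes of the cycle.

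ORT1 (YOR130C, also called ARG11) encodes the mitochondrial carrier that exports ornithine. Its level was 10.54, 10.82 and 10.73 in wild type and 11.07, 11.56 and 11.39 in the deletion strain. Of the 9 genes it had the widest spread, with an SD of 0.25 over the deletion arrays, and replicate 1 was the lowest in both strains. ORT1 differed by 0.65 log2 (SE 0.14, limma adjusted p = 0.0073), and 0.49 after array centring. The ORT1 difference moved with the spike level, whose part was not tested. Within the low-spike arrays it was 0.40 and not called (limma adjusted p = 0.138), and within the high-spike arrays it was 0.75 (limma adjusted p = 0.0110).

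CPA1 (YOR303W) encodes the small subunit of the carbamoyl phosphate synthetase that serves arginine synthesis. Its level was 13.48, 13.47 and 13.56 in wild type and 13.82, 13.89 and 13.82 in the deletion strain. The difference was small but several times the spread of either strain. It came to 0.34 in log2 (SE 0.05, limma adjusted p = 0.0015), and to 0.18 after array centring. The array also holds a probe set for YOR302W, the short upstream reading frame in the CPA1 leader that is known for attenuating CPA1 translation in response to arginine. YOR302W read 12.85, 12.78 and 12.94 in wild type and 12.87, 13.02 and 12.88 in the deletion strain, and the strains overlapped. Its log2 difference was 0.07 (SE 0.07, limma adjusted p = 0.423), so the CPA1 and YOR302W probe sets gave different values. Whether the 2 probe sets differ in their change was not tested.

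In the cytosolic steps from ornithine to arginine, the first gene fell and the other two rose. ARG3 (YJL088W) encodes ornithine carbamoyltransferase, which makes citrulline and in S. cerevisiae is known to be bound and inhibited by arginase. Its level was 12.82, 12.93 and 12.93 in wild type and 12.43, 12.71 and 12.51 in the deletion strain. Deletion replicate 2 came close to wild-type replicate 1, and the other deletion arrays lay lower. The log2 difference was -0.34 (SE 0.08, limma adjusted p = 0.012), the weakest call of the 9, and -0.50 after array centring.

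ARG1 (YOL058W) encodes argininosuccinate synthetase, which joins citrulline with aspartate. Its level was 13.14, 13.18 and 13.22 in wild type and 13.76, 13.94 and 13.84 in the deletion strain. The gap between the strains was several times the spread within either. ARG1 differed by 0.66 log2 (SE 0.06, limma adjusted p = 2.0e-04), and 0.51 after array centring. ARG1 gained on ARG3 by 1.04, 0.94 and 1.04 log2 on the 3 deletion arrays, relative to the wild-type means, against -0.05 to 0.03 on the wild-type arrays.

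ARG4 (YHR018C) encodes argininosuccinate lyase, which releases arginine in the closing step. Its level was 13.23, 13.30 and 13.29 in wild type and 13.56, 13.63 and 13.54 in the deletion strain. All deletion arrays were higher, by a margin that was small beside the changes in CAR1 and CAR2. ARG4 differed by 0.30 log2 (SE 0.05, limma adjusted p = 0.0024). After array centring it was 0.15 (limma adjusted p = 0.0446), the smallest of the 9 on that scale.

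**Figure D2:**
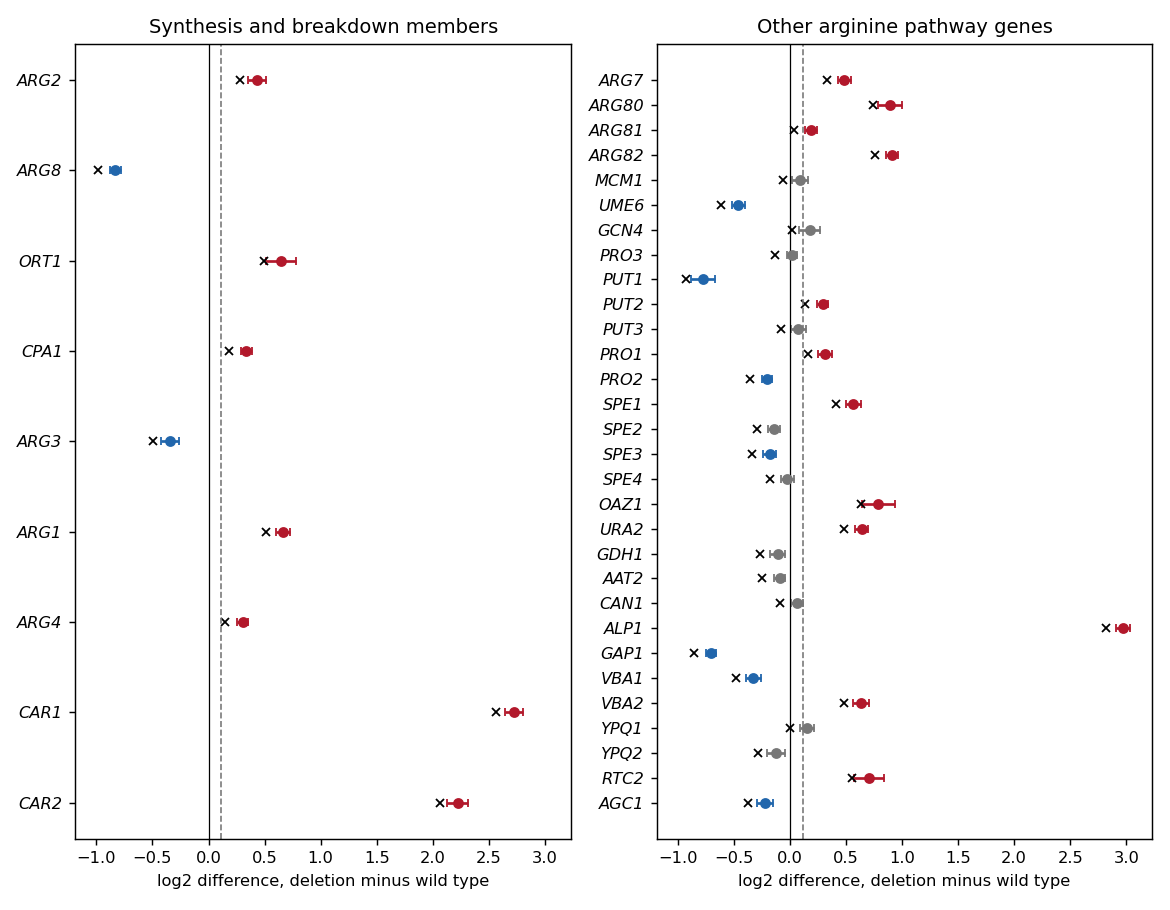
Log2 difference between the strains (deletion minus wild type, horizontal axis) with limma's standard error as whiskers, for the 9 arginine genes (left) and 30 other genes of the pathway (right). Red marks genes called higher, blue lower and grey not called; crosses give the difference after array centring, the solid line marks 0 and the dashed line the median of all tested genes, 0.11. CAR1 at 2.72, CAR2 at 2.22 and the permease gene ALP1 at 2.97 stand far to the right of the others.

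Set in order of their strain difference, the 9 genes fell into steps. CAR1 came first, CAR2 lay 0.50 below it (4.12 times the combined standard error), and ARG1 lay a further 1.56 below CAR2. ARG1, ORT1, ARG2, CPA1 and ARG4 followed each other at gaps of 0.02, 0.21, 0.09 and 0.03. Each gap was at most 1.34 times its combined standard error. That error treats the genes as independent, although they were measured on the same arrays. The multiples therefore describe the gaps only, and whether neighbours in that order differ was not tested. Genes further apart in that order had wider gaps, with ARG1 above CPA1 by 0.33 (4.21 times the combined standard error) and above ARG4 by 0.36 (4.63 times). ARG3 lay 0.65 below ARG4, and ARG8 0.49 below ARG3, both more than 5 times the combined standard error. The 7 synthesis genes had a median log2 difference of 0.34 (0.18 after array centring), and CAR1 and CAR2 a mean of 2.47, beside a median of 0.11 over all tested genes. The synthesis median minus the breakdown mean was -2.13. Taken array by array against the wild-type means it was -2.24, -2.09 and -2.07 on the deletion arrays and -0.13, -0.04 and 0.18 on the wild-type arrays. Scaling a whole array does not enter this value, since it is a difference within each array. It shows unequal change between the groups and not that either was unchanged.

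**Figure D3:**
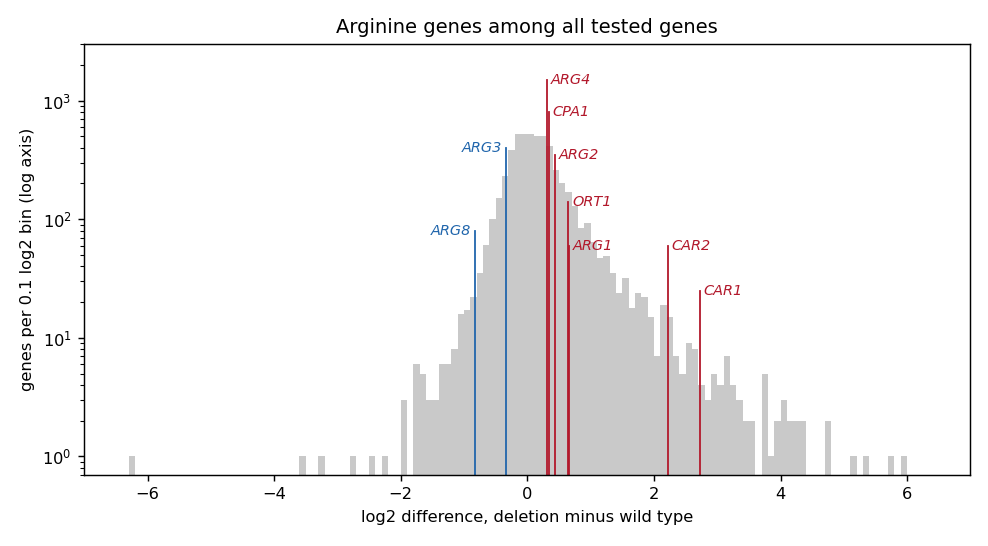
Histogram of the log2 difference between the strains (deletion minus wild type) over the 5449 tested genes, with the number of genes per bin on a log axis. Coloured lines mark the 9 arginine genes, and the height of a line carries no value. CAR1 and CAR2 sit in the sparse right tail, ARG8 in the left tail, and the other 6 genes within the bulk of the distribution.

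Fewer of the 9 genes were called within the spike sets, which hold fewer arrays. Within the low-spike arrays alone, 5 of the 9 genes were called (CAR1, CAR2, ARG1, ARG8 and ARG3), and within the high-spike arrays 6 (CAR1, CAR2, ARG1, ARG8, ARG2 and ORT1). The same fits called 29.2% and 44.4% of all tested genes. In either set 1 strain has a single array, and the fit takes its spread from the other strain. CAR1 differed by 2.66 in the low set and 2.87 in the high set, CAR2 by 2.29 in both, ARG1 by 0.60 and 0.66, and ARG8 by -0.83 in both. CPA1 and ARG4 were called in neither set, with CPA1 at 0.34 and 0.30 and ARG4 at 0.29 in both. Leaving out any 1 of the 6 arrays left all 9 called. Those fits called 2709 to 3020 of the 5449 tested genes, so these calls alone do not set the 9 genes apart.

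**Figure D4:**
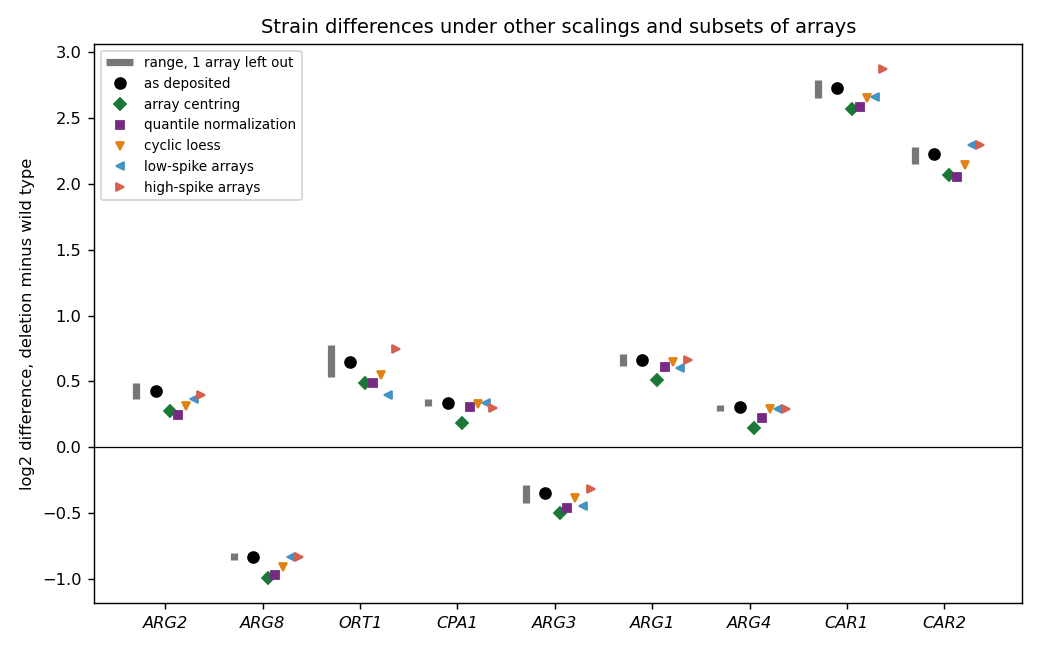
Log2 difference between the strains (deletion minus wild type) for each of the 9 genes as deposited (black), under 3 other scalings, within the low-spike and high-spike arrays, and as the range when each array is left out in turn (grey bar). Each gene stays on its side of 0 in all of these, and ORT1 shows the widest gap between the spike sets, 0.40 against 0.75.

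Genes around this pathway were counted from a list of 32, chosen by role, of which 30 were measured here. ARG5,6 and DUR1,2 had no probe set under those names in the annotation used and were not analysed here. Of the 30, 12 were called higher and 7 lower, with a median log2 difference of 0.08, beside the 0.11 of all genes. The share called was 63.3% of the 30 and 59.5% of all tested genes. After array centring the counts were 9 higher and 12 lower, or 70.0% of the 30 in all, against 60.3% of all tested genes, 27.2% higher and 33.1% lower.

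Of 6 regulator genes, 3 rose and 1 fell, so 66.7% were called, beside 59.5% of all tested genes. ARG82, an inositol polyphosphate kinase gene, read 9.68, 9.71 and 9.76 in wild type and 10.58, 10.68 and 10.62 in the deletion arrays, which is a rise of 0.91 log2 (SE 0.05, limma adjusted p = 2.6e-05). ARG80 rose by 0.89 (SE 0.11, limma adjusted p = 7.0e-04), from 8.45, 8.32 and 8.11 to 9.24, 9.29 and 9.04. The ARG80 value depended on the scaling, and after quantile normalization it was 0.27 (limma adjusted p = 0.0804). ARG81 differed by 0.19 (limma adjusted p = 0.0272), and it was not called under array centring (0.03), quantile normalization (-0.14), cyclic loess (-0.06) or a fit to all probe sets. It also lost its call without wild-type replicate 1 (0.18) or 2 (0.17), or without deletion replicate 2 (0.18) or 3 (0.16). UME6 was the regulator that fell, from 10.67, 10.61 and 10.53 to 10.09, 10.21 and 10.12, a log2 difference of -0.46 (SE 0.06, limma adjusted p = 7.5e-04) and of -0.62 after array centring. MCM1 (0.09, limma adjusted p = 0.295) and GCN4 (0.17, limma adjusted p = 0.145) were not called, and the strains overlapped for both, though GCN4 passed without wild-type replicate 1 (0.27, limma adjusted p = 0.0170) and MCM1 with spike level as a block (0.14, limma adjusted p = 0.0340).

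Of 6 measured genes of proline use and synthesis, to which the CAR2 product leads, 2 rose, 2 fell and 2 were not called. That is 66.7% called, beside 59.5% of all tested genes. PRO3, which encodes the reductase that turns pyrroline-5-carboxylate into proline, differed by 0.02 (SE 0.05, limma adjusted p = 0.726). PUT1, the proline oxidase gene, fell by 0.77 on the log2 scale (SE 0.11, limma adjusted p = 0.0012), with 10.98, 10.84 and 11.04 in wild type and 10.01, 10.38 and 10.15 in the deletion strain. PUT2, the pyrroline-5-carboxylate dehydrogenase gene, rose by 0.29 (limma adjusted p = 0.0030), and by 0.14 after array centring, where it was no longer called. PUT3, which encodes the activator of PUT1 and PUT2, was not called (0.08, limma adjusted p = 0.365). Of proline synthesis from glutamate, PRO1 rose by 0.31 (0.16 and not called after array centring) and PRO2 fell by 0.20 on the log2 scale.

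Ornithine also feeds polyamines. SPE1, the ornithine decarboxylase gene, rose by 0.57 (SE 0.07, limma adjusted p = 5.7e-04), and OAZ1, whose product promotes degradation of that enzyme, rose by 0.79 (SE 0.14, limma adjusted p = 0.0040). SPE3, the spermidine synthase gene, fell by 0.18 on the log2 scale (limma adjusted p = 0.0371), a call lost without wild-type replicate 2 (-0.17) or 3 (-0.15), without deletion replicate 1 (-0.16) or 3 (-0.16), and in a fit to all probe sets. SPE2 and SPE4 were not called as deposited. SPE2 was called lower under array centring (-0.30), quantile normalization (-0.26), cyclic loess (-0.22) and array weights (-0.17), and SPE4 under array centring (-0.18). The polyamine branch thus held 2 rises and 1 fall in 5 genes, or 2 and 3 after array centring. URA2, which encodes the carbamoyl phosphate synthetase of pyrimidine synthesis, rose by 0.64 (SE 0.06, limma adjusted p = 1.9e-04), while GDH1 and AAT2, genes for enzymes that make glutamate and aspartate, were not called as deposited and were called lower after array centring (-0.27 and -0.25).

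Of 9 genes for transport of arginine or its precursors, 3 rose and 3 fell, so 66.7% were called, beside 59.5% of all tested genes. ALP1, a permease gene of the basic amino acid family, read 6.73, 6.67 and 6.77 in wild type, above but near background, and 9.79, 9.63 and 9.66 in the deletion strain. That is a 7.85-fold rise (log2 difference 2.97, SE 0.06, limma adjusted p = 9.4e-07). Beside CAR1 that is larger as deposited and after array centring (2.82, with CAR1 at 2.57). The 2 genes were nearly equal after cyclic loess (2.65 for both), and ALP1 was below CAR1 after quantile normalization (2.38, with CAR1 at 2.58). CAN1, the main arginine permease gene, did not pass the test, at 13.19 ± 0.05 (SD, n = 3) and 13.25 ± 0.06 (SD, n = 3), a log2 difference of 0.06 (SE 0.05, limma adjusted p = 0.362). GAP1, the general amino acid permease gene, fell 1.63-fold, from 13.96, 13.99 and 14.03 to 13.27, 13.32 and 13.27. Among vacuolar transporters of basic amino acids, VBA2 and RTC2 rose by 0.63 and 0.70, and VBA1 fell by 0.33 on the log2 scale. AGC1, the mitochondrial aspartate-glutamate carrier gene, fell by 0.22 on the log2 scale (limma adjusted p = 0.0319). That call was lost without wild-type replicate 1 (-0.21) or 3 (-0.18), and without deletion replicate 2 (-0.21) or 3 (-0.19). It was also lost in a fit to all probe sets and with spike level as a block (-0.22). Within the low-spike arrays the AGC1 difference was -0.09. YPQ1 and YPQ2 were not called as deposited. YPQ1 passed as higher without wild-type replicate 3 (0.19, limma adjusted p = 0.0424) and with array weights (0.15). YPQ2, at -0.13 as deposited, was called lower under array centring (-0.28), quantile normalization (-0.29) and cyclic loess (-0.22), and with spike level as a block (-0.18).

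The genes with the pattern closest to CAR1, CAR2 and ARG8 were found by the root mean square distance between log2 values over the 6 arrays, each gene centred on its own mean. DIA3 was closest to CAR1 at a distance of 0.043, followed by SDD1 (0.084) and TAT2, a tryptophan permease gene (0.088), with strain differences of 2.67, 2.59 and 2.83. SDD1 was above background on 1 of the 3 wild-type arrays, so its difference and distance carry that limit. Closest to CAR2 were YOR338W (0.064), SGA1, a glucoamylase gene of sporulation (0.089), and NDE2, an external NADH dehydrogenase gene (0.091), with strain differences of 2.18, 2.15 and 2.08. The same limit holds for SGA1, also above background on 1 of the 3 wild-type arrays. Closest to ARG8 were PMT4, a protein O-mannosyltransferase gene (0.030), ADE12, the adenylosuccinate synthase gene (0.030), and TSC10, a gene of sphingolipid synthesis (0.031), which differed by -0.82, -0.79 and -0.88. None of the other arginine genes was among these 9 closest genes. With 2 groups of 3 arrays, the measure mostly ranks genes by how near their strain difference is.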

How the data were processed

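Biotin-labelled total RNA of 6 samples was measured on Affymetrix arrays. The deposited table holds 1 linear intensity for each probe set and sample, made with R 2.8.0, affy and RMA per the submitters' processing notes. RMA corrects background, normalizes between arrays and summarises probes, and it compresses low values.

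Here log2 was taken of the deposited intensities. Where a gene had several probe sets the one with the highest mean was used, and genes were named through the array annotation and RefSeq (assembly R64), which gave 5449 genes of 10928 probe sets. The strain comparison used limma (version 3.58.1, with R 4.3.3) and Benjamini-Hochberg adjustment over the 5449 genes. The fit was tested on simulated data. The background level came from 1746 probe sets whose gene is not in the S. cerevisiae table: their 95th percentile was 6.09 in log2, and an array's own percentile replaced it where higher. All 9 genes were above it on every array. Arrays carry no read depth, so their number limits the precision.

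No coordinates are printed, because the genome build of the array annotation is not stated, and no sequences were used. The text names the 9 genes, the listed pathway genes, BAS1 and markers, and the 3 nearest patterns of CAR1, CAR2 and the synthesis gene that changed most. One further pathway gene is not reported here. YOR302W and neighbouring genes were added after their values were seen. The genes and lists were chosen with earlier results of these data known. Alternatives were other scalings, filters, probe set rules, variance models and thresholds, the replicate number as a block, spike level, and leaving out each array.

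Deviations of same-numbered samples from their strain means correlated at 0.44, -0.51 and -0.44 across genes, so the numbers were not taken to pair samples. Across numbers, wild-type replicate 3 correlated at 0.75 with deletion replicate 2, and wild-type replicate 2 at 0.46 with deletion replicate 3. Some variation was thus shared between arrays of the 2 strains. The main fit does not model it, and its source was not tested.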

Additional observations from a re-analysis of the deposited data

How the results depend on the processing

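The 9 genes kept their call in 163 of 171 values over 19 alternatives. Of these alternatives 6 leave a gene's difference as it is, and in the 117 values of the other 13 the direction was kept. The exceptions were ARG3 at a threshold of 0.01 (adjusted p = 0.0124), ARG2, ORT1, CPA1 and ARG4 within the low-spike arrays, and CPA1, ARG3 and ARG4 within the high-spike arrays, which hold fewer samples. With the replicate number as a block, 9 of the 9 genes and 17 of the 30 other pathway genes were called; SPE3 (adjusted p = 0.0509) and AGC1 (adjusted p = 0.0560) lost their calls, and the samples share only a number. The block called 3140 genes, against 3241 without it.

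Of the 9 genes, 1 stayed called lower at 0.01 and 1 in the high-spike arrays, and the low-spike arrays called 5, of which 3 higher. Of the pathway list, array centring called 12 lower, and the low-spike arrays called 10, of which 7 higher and 3 lower. Over all genes, array centring called 1803 lower, quantile normalization 1356 higher and 1935 lower, and the fit to all probe sets 1825 lower. Centring took the share of higher calls from 66.6% to 45.1%. The threshold of 0.01 left 679 lower. Low-spike arrays called 1593 genes, 1102 higher and 491 lower, and high-spike arrays 614 lower. The synthesis minus breakdown difference was -2.29 in the high-spike arrays.

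With 1 array left out, 2709 to 3020 genes were called, 1847 to 2053 higher and 862 to 979 lower. All 9 genes stayed called (7 higher and 2 lower), and 16 to 18 pathway genes were called, 11 to 13 higher and 5 to 6 lower. The synthesis minus breakdown difference ran from -2.19 to -2.03.

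Small pathway differences changed sign with scaling. Array centring gave MCM1 -0.0628, PRO3 -0.135, PUT3 -0.0796, CAN1 -0.0933 and YPQ1 -0.0028. Quantile normalization gave ARG81 -0.137, MCM1 -0.0443, PRO3 -0.0259, PUT3 -0.109 and CAN1 -0.0485, and cyclic loess ARG81 -0.0586 and PUT3 -0.0578. SPE4 was 0.0026 with array weights and 0.0146 in the high-spike arrays, and ran from -0.0598 to 0.0276 with 1 array left out. The cause of these changes was not tested. All 9 genes were above background on every array.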

Other observations

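The tested genes next to each of the 9 arginine genes moved in both directions. Of 18 neighbours, limma called 6, or 33.3%, beside 59.5% of all tested genes. Of the 6, 3 moved in the direction of the arginine gene and 3 against it. The 18 had log2 differences from -0.65 to 1.31 and a median of 0.02. They include YOR302W, which lies in the CPA1 leader and is not a separate neighbouring gene, and which was not called. Beside CAR1, GDE1, a glycerophosphocholine phosphodiesterase gene, rose by 1.04 (adjusted p = 1.4e-05), while PEX25, a peroxisome gene, differed by -0.09 (adjusted p = 0.331). Neither neighbour of CAR2, DIF1 at -0.03 (SE 0.27, limma adjusted p = 0.942) and LSM3 at 0.49 (SE 0.40, limma adjusted p = 0.322), was called. Both varied widely in wild type, with SDs of 0.53 and 0.74, so these values do not show them unchanged. Beside ARG3, which fell, SIP4, which encodes an activator of gluconeogenic genes, rose by 1.31 (adjusted p = 1.1e-04). ARG1 lies between GPD2, a glycerol-3-phosphate dehydrogenase gene that rose by 0.75 (adjusted p = 0.0011), and YOL057W, which fell by 0.65 on the log2 scale (adjusted p = 1.2e-04). These neighbours were chosen by position, after the changes of the arginine genes had been seen.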
